A study of Mus musculus with 30 samples.

Results

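The 8 genes described here, C1qa, C1qb, C1qc, Csf1r, Cd68, Ptprc, Laptm5 and Lyz2, are expressed mainly by macrophages and other white blood cells. Their RNA in the whole organ was taken as a measure of its leukocytes, a use that was not tested here. They were measured in mouse embryonic ovaries at 5 ages, 11.5, 12.5, 14.5, 16.5 and 18.5 days post coitum (dpc), in 2 numbered samples per age. All probe sets that the platform annotation assigns to 1 of these gene symbols alone were taken, which gave 17 of the 36701 probe sets on the arrays, for 8 of 15964 named genes. Of these, 15 lie on the first of 3 Affymetrix array types (array A), none on array B and 2 on array C. Every group was RNA of pooled ovaries from BL/6-129 mice with no treatment, and the gonads of the younger ages were sexed by PCR for Sry, the male-determining gene. No label states that both numbers of an age stand for separate pools. The p-values below therefore describe only how far these samples spread, and that spread may be technical.

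Macrophages of the embryo come from yolk sac and fetal liver precursors and settle in nearly all organs, where they engulf dying cells. In the fetal testis they are known to lie near vessels and to clear misplaced cells. C1q is the recognition protein that starts the classical complement pathway, and it is built from 3 chains, encoded by C1qa, C1qb and C1qc, which tissue macrophages make at a high rate. Csf1r is the receptor through which the growth factors Csf1 and Il34 keep macrophages alive. Cd68 is a glycoprotein of macrophage lysosomes, Lyz2 the lysozyme of myeloid cells, Ptprc the surface phosphatase CD45 carried by all leukocytes, and Laptm5 a lysosomal membrane protein of haematopoietic cells.

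The C1q genes lie side by side within 18.7 kb of chromosome 4 of GRCm38.p6, C1qb at chr4:136880126-136886200, C1qc at chr4:136889801-136892936 and C1qa at chr4:136895916-136898844. Lyz2 lies at chr10:117277541-117282272. RefSeq's promoter table held a window for 6 of the 8 genes, and the 250 bases before the start are printed for C1qb and C1qc, as neighbours encoding parts of 1 protein, and for Lyz2, whose values depended most on how low signals were treated. All 3 are read 5′ to 3′ on the minus strand, which is the strand of the genes. Capitals mark ACTTCC, the reverse complement of GGAAGT, a core bound by transcription factors of the ETS family such as the macrophage factor PU.1.
C1qb, chr4:136886201-136886450: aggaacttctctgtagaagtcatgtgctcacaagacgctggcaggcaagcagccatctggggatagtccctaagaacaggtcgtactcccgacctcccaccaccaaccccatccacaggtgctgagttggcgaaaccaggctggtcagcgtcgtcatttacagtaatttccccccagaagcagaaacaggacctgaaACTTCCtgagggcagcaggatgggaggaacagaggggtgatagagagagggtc
C1qc, chr4:136892915-136893164: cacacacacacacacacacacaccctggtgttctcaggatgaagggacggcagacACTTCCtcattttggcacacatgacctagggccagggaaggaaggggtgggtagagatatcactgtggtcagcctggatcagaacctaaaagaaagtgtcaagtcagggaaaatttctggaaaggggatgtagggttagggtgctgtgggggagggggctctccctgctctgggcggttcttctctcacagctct
Lyz2, chr10:117282273-117282522: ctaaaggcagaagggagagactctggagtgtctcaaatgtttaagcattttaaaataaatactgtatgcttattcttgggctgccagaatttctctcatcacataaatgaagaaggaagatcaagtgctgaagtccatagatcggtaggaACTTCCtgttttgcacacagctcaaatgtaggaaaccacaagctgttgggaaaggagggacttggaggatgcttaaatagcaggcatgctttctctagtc
The match began 53 bases before the start of C1qb, 195 before C1qc and 100 before Lyz2, each counted from the start that its window adjoins. For C1qc that start lies inside the gene span given above, which reaches 136892936. The last bases of its window, from 136892915, therefore overlap that span. GGAAGT, searched on both strands, was present in the windows of 5 of the 6 genes, all but Cd68, and in 19.7% of the 32851 windows of that length in the table. These matches are letters in a window and not measured binding.

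Each array gave 1 signal intensity per probe set, deposited after the authors' scaling to a mean of 125. A probe set entered the tests if 2 or more of the 10 arrays carrying it read a signal of 50 or more. By that rule 24825 probe sets were tested, among them 10 of the 17 of the 8 genes, from C1qa, C1qb, C1qc, Csf1r, Cd68 and Laptm5. The 7 left out were all 3 of Ptprc, both of Lyz2, 1 of Cd68 and 1 of Laptm5. The arrays themselves were of like brightness, with median signals of 47.0 to 60.2 on array A and 53.2 to 61.2 on array C. The ratio of the 3′ to the 5′ probe set of Gapdh, a sign of RNA integrity, moved with age, from 0.812 and 0.798 at 11.5 dpc to 1.08 and 1.03 at 18.5 dpc. That of actin was 1.88 and 1.58 at 11.5 dpc and 2.01 and 2.20 at 18.5 dpc, within 1.20 to 2.28 over the course. The part of these ratios in the values below was not tested. Probe sets of 5 bacterial genes, which mouse RNA should not fill, gave signals of 0.6 to 29.9 on array A and 2.4 to 135 on array C. The labels do not state whether bacterial transcripts were added to the samples.

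C1q chain signals were low to moderate, and none of the differences between ages passed the test. C1qa, the A chain, gave 60.5 and 47.9 (11.5 dpc), 32.8 and 59.4 (12.5 dpc), 55.9 and 41.8 (14.5 dpc), 99.0 and 57.0 (16.5 dpc), 70.1 and 51.0 (18.5 dpc). The first sample of 16.5 dpc was the highest of the 10, its partner lay among the younger ages, and the ages overlapped. The age means ran from 46.1 ± 18.8 (SD, n = 2) at 12.5 dpc to 78.0 ± 29.7 (SD, n = 2) at 16.5 dpc, and no neighbours in the order of ages were separated.

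C1qb, the B chain, had 2 tested probe sets, 96020_at and 162276_i_at. The first gave 46.9 and 40.2 (11.5 dpc), 32.4 and 58.8 (12.5 dpc), 10.2 and 28.6 (14.5 dpc), 74.8 and 36.7 (16.5 dpc), 32.7 and 33.9 (18.5 dpc). Both samples of 14.5 dpc lay below all other samples, and both of 16.5 dpc lay above those of 18.5 dpc. Between 14.5 and 16.5 dpc its log2(signal + 16) was 1.02 higher (SE 0.35, a ratio of 2.02). Under limma the unadjusted p was 0.013 and the Benjamini-Hochberg adjusted p 0.19, so it did not pass the threshold of 0.05. The second probe set gave 16.4 and 34.0 (11.5 dpc), 73.9 and 43.3 (12.5 dpc), 8.6 and 46.6 (14.5 dpc), 47.6 and 28.4 (16.5 dpc), 58.7 and 18.2 (18.5 dpc). Its highest mean was at 12.5 dpc rather than at 16.5 dpc, and its 14.5 dpc samples stood far apart.

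C1qc, the C chain, was the C1q gene with all its signals at 50 or more, on 1 probe set of array A and 1 of array C. On array A it gave 67.9 and 132.3 (11.5 dpc), 124.9 and 91.9 (12.5 dpc), 76.0 and 74.6 (14.5 dpc), 150.4 and 70.2 (16.5 dpc), 77.4 and 79.4 (18.5 dpc). On array C it gave 160.1 and 143.6 (11.5 dpc), 105.1 and 123.9 (12.5 dpc), 131.6 and 120.9 (14.5 dpc), 55.9 and 157.2 (16.5 dpc), 149.6 and 252.6 (18.5 dpc). The bacterial probe sets of array C read up to 135, so a signal of 50 is no sign of detection there. Both array C signals of 12.5 dpc, both of 14.5 dpc and the first of 16.5 dpc lie within that range. The first sample of 16.5 dpc was the highest of the 10 on array A and the lowest of the 10 on array C. Over the 10 numbered samples the log2 signals of both probe sets had a Pearson r of -0.66 (Spearman rho -0.55), a description that assumes that the arrays of 1 number received the same RNA, which the labels do not state.

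**Figure D1:**
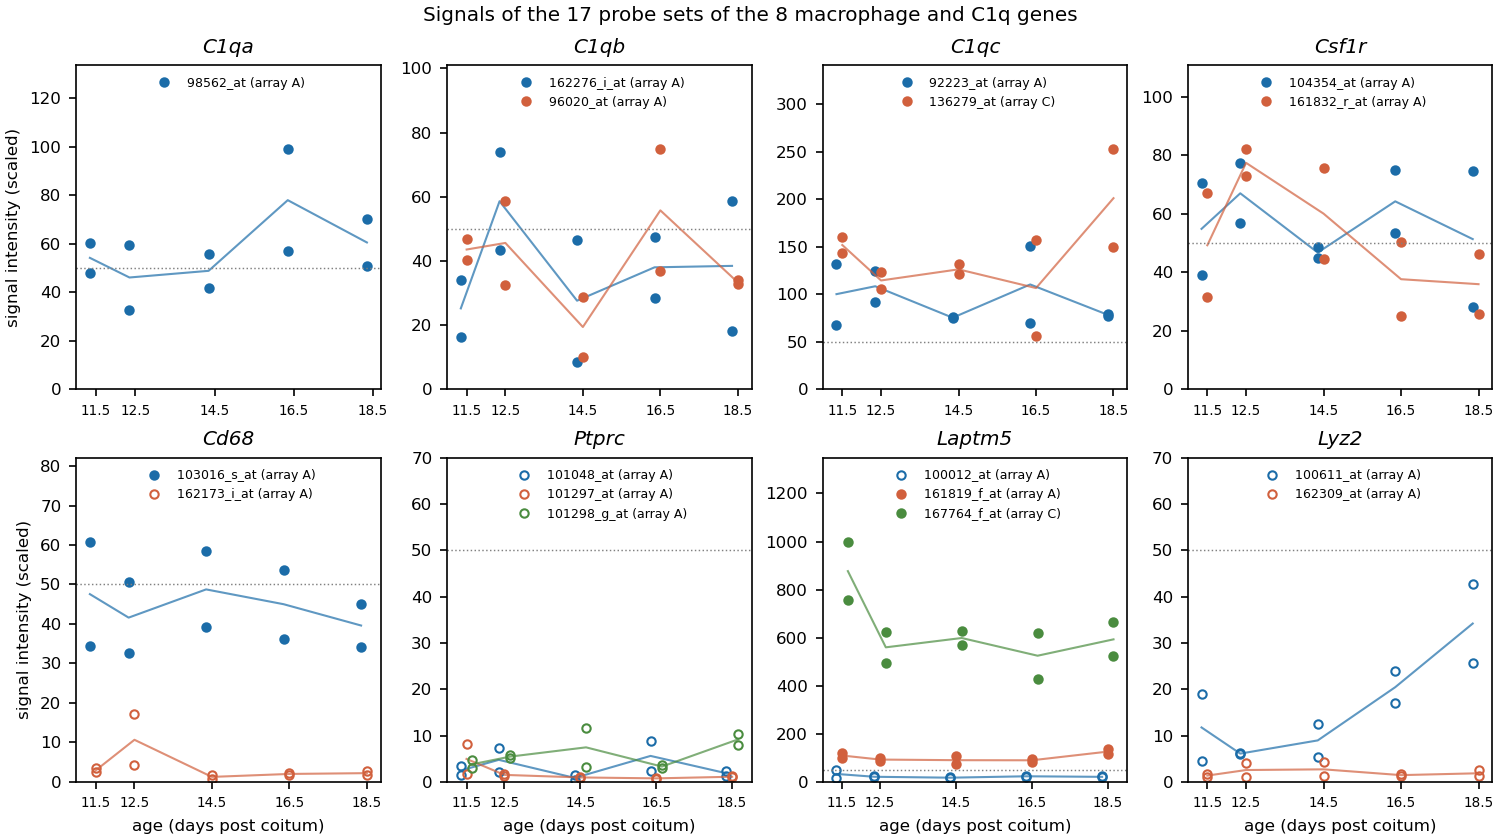
Signal intensity (vertical axis, linear, from 0) against age in days post coitum for the 17 probe sets of the 8 genes, with 1 point per sample (probe sets of a gene shifted slightly sideways), a line through the age means, filled points for the 10 tested probe sets and open points for the other 7; the dotted line is the signal of 50 used in the filter. Samples of the same age are often as far apart as the ages, as for C1qa at 16.5 dpc (99.0 and 57.0), and the Ptprc points stay between 0.3 and 11.6.

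Csf1r, the receptor that macrophages need, was measured by 2 tested probe sets, and both had their highest mean at 12.5 dpc. Probe set 104354_at gave 39.0 and 70.6 (11.5 dpc), 77.2 and 56.7 (12.5 dpc), 48.7 and 44.7 (14.5 dpc), 74.9 and 53.5 (16.5 dpc), 74.4 and 28.2 (18.5 dpc). The 2 samples of 18.5 dpc spanned nearly the whole range of the course. Probe set 161832_r_at gave 31.4 and 67.0 (11.5 dpc), 72.7 and 82.0 (12.5 dpc), 44.4 and 75.6 (14.5 dpc), 50.2 and 25.0 (16.5 dpc), 46.2 and 25.6 (18.5 dpc). Here both 12.5 dpc samples lay above both samples of 16.5 and of 18.5 dpc. Its slope was -0.09 log2 units per day (SE 0.04, unadjusted p 0.058), with a limma adjusted p of 0.17, the smallest among the 8 genes, and it did not pass. The other Csf1r probe set had a slope of -0.02 per day (SE 0.04).

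The remaining macrophage marker, Cd68, gave 34.3 and 60.8 (11.5 dpc), 32.6 and 50.6 (12.5 dpc), 39.1 and 58.4 (14.5 dpc), 53.7 and 36.3 (16.5 dpc), 34.2 and 45.0 (18.5 dpc) on its tested probe set. Its age means differed by at most 9.15 units, and both samples of 11.5 dpc alone were 26.5 units apart. The other Cd68 probe set read 0.7 to 17.1.

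Laptm5, the lysosomal protein of blood cells, had its brightest probe set on array C. That probe set gave 998.7 and 754.8 (11.5 dpc), 494.3 and 625.1 (12.5 dpc), 626.7 and 570.4 (14.5 dpc), 619.8 and 429.9 (16.5 dpc), 521.6 and 664.2 (18.5 dpc). Both samples of 11.5 dpc lay above the other 8. The log2 difference of 12.5 from 11.5 dpc was -0.63 (SE 0.25, unadjusted p 0.027, limma adjusted p 0.33), and that of 18.5 from 11.5 dpc was -0.55 (SE 0.25, unadjusted p 0.049, limma adjusted p 0.17). Neither passed. A Laptm5 probe set of array A gave 118.8 and 100.2 (11.5 dpc), 87.1 and 98.2 (12.5 dpc), 74.2 and 106.0 (14.5 dpc), 95.7 and 83.6 (16.5 dpc), 115.8 and 135.7 (18.5 dpc). Its highest mean was at 18.5 dpc, so the tested probe sets of Laptm5 differed in their order of ages. Both carry the suffix by which Affymetrix marks probe sets built on a sequence family (_f_at), whose probes can match related transcripts. The third Laptm5 probe set, without that suffix, read 15.4 to 50.3 and was not tested.

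Ptprc, which encodes CD45, was at the level of the bacterial probe sets on array A. Its 3 probe sets read 0.3 to 8.9, 0.6 to 8.1 and 2.9 to 11.6, all within the 0.6 to 29.9 of the bacterial probe sets or below them, and at no age were both samples above all others. Such a signal gives an upper bound on what the probes could see and does not show that leukocytes were absent.

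Lyz2, the myeloid lysozyme, never reached the filter, with 18.9 and 4.6 (11.5 dpc), 6.2 and 6.0 (12.5 dpc), 12.6 and 5.3 (14.5 dpc), 23.9 and 17.0 (16.5 dpc), 42.7 and 25.7 (18.5 dpc) on probe set 100611_at. The samples of 18.5 dpc were the highest and those of 16.5 dpc came next, apart from the first sample of 11.5 dpc. With no filter on low signals its slope passed, at 0.15 log2 units per day (SE 0.04, limma adjusted p 0.021). Without a filter, 18.5 against 11.5 dpc gave a log2 change of 0.88 (SE 0.29, limma adjusted p 0.089), which did not pass. The slope's adjusted p rose to 0.085 when 11.5 dpc replicate 2 was left out, and to 0.12 when 18.5 dpc replicate 1 was. Leaving out either sample of 12.5 dpc gave 0.052 and 0.055, and leaving out each of the other 6 gave 0.011 to 0.044. A second Lyz2 probe set read 1.0 to 4.2. A probe set shared by Lyz2 and its neighbour Lyz1 was left out of the count of 17 and read 3.5 to 9.5, with its 2 highest values, 8.7 and 9.5, at 18.5 dpc. Lyz1 itself, a lysozyme of Paneth cells that is nearly identical in sequence, had 2 probe sets on array C. The first read 85.4 to 243.2 and did not pass (limma adjusted p 0.81 for 18.5 against 11.5 dpc). Like those of Laptm5 it carries the suffix _f_at, and its signals of 105.4 and 85.4 lie within the bacterial range of array C. The other read 1.5 to 19.6 and was not tested.

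None of the 10 tested probe sets passed an adjusted p of 0.05 in any of the 7 tests run on each. For 12.5 against 11.5 dpc 0 of 10 passed, where 0.226% of all tested probe sets did. For 14.5 against 12.5 dpc it was 0 of 10 against 1.66%, for 16.5 against 14.5 dpc 0 of 10 against 0.689%, and for 18.5 against 16.5 dpc 0 of 10 against 0.624%. At these 4 steps a count of 0 among 10 is near the background. For 18.5 against 11.5 dpc 0 of 10 passed where 14.5% of all probe sets did. The slope over the 5 ages gave 0 of 10 against 20.7%, and limma's F test over the ages 0 of 10 against 14.4%. An unadjusted p under 0.05 was seen in 1 of 10 at each of the first 3 steps, where 12.4%, 14.9% and 15.6% of all tested probe sets had one, and in 0 of 10 at the last step, against 13.1%. At the steps these counts are near the background. For 18.5 against 11.5 dpc it was 1 of 10 against 28.9%, for the slope 0 of 10 against 33.7% and for the F test 0 of 10 against 31.3%. With only 10 probe sets, several of the same gene, these counts cannot show that the genes changed less than others.

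From 11.5 to 18.5 dpc the log2 change of the 10 probe sets ran from -0.55 to 0.33, with 4 above 0 and 6 below and a median of -0.15, where the median of all 24825 was 0.02. The median over the 6 tested genes, 1 probe set each, was also -0.15, and it turned to 0.06 without 11.5 dpc replicate 2. The width of the intervals limits what these 0 calls can show. C1qa changed by 0.12 with a 95% interval of -0.52 to 0.76. The C1qb probe sets gave 0.33 (-0.71 to 1.37) and -0.27 (-1.04 to 0.50), and those of C1qc 0.33 on array C (-0.60 to 1.26) and -0.24 on array A (-0.92 to 0.44). For Csf1r the values were -0.13 (-0.86 to 0.61) and -0.30 (-1.06 to 0.45), and for Cd68 -0.17 (-0.83 to 0.49). Laptm5 on array A had the narrowest interval, 0.18 (-0.26 to 0.62). Over the 10 probe sets the bounds reach a rise of 2.58-fold and a fall of 2.14-fold on the log2(signal + 16) scale. In bulk RNA, fewer cells of a type and less RNA per cell cannot be told apart.

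**Figure D2:**
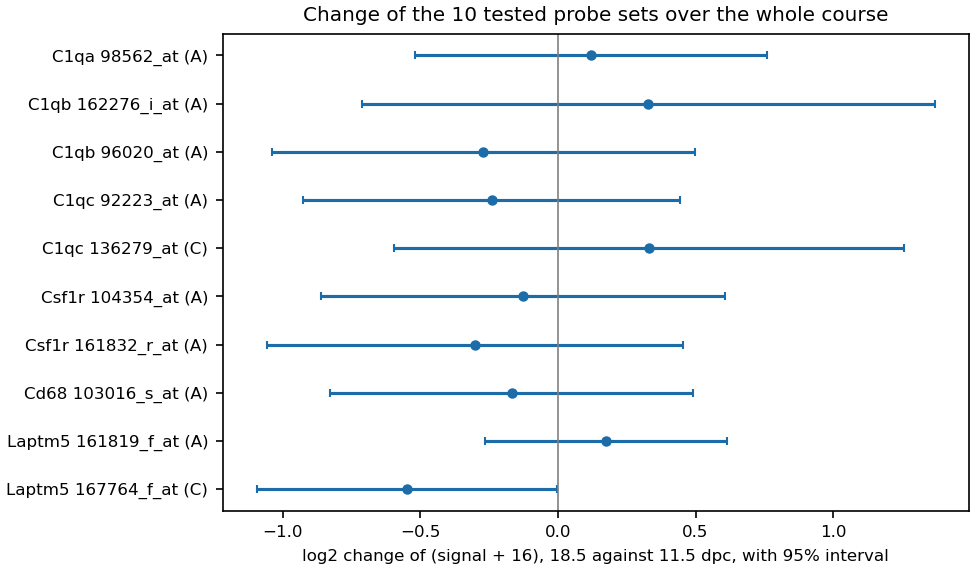
Log2 change of signal + 16 from 11.5 to 18.5 dpc (horizontal axis) for the 10 tested probe sets, each with its 95% interval from limma and the array type in brackets. The points lie between -0.55 and 0.33, and all intervals but that of Laptm5 on array C cross 0.

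The samples of 1 age differed from each other about as much as the ages did. In 7 of the 10 tested probe sets the largest gap between both samples of an age was wider than the range of the 5 age means. The age with the highest mean was 11.5 dpc for 1 probe set, 12.5 dpc for 3, 14.5 dpc for 1, 16.5 dpc for 3 and 18.5 dpc for 2. In 4 of the 10 the samples of the highest and the lowest age overlapped. The first sample of 16.5 dpc was the highest of the course for C1qa, for C1qb probe set 96020_at and for C1qc on array A. In that sample the Gapdh 3′ to 5′ ratio was 0.894, inside the range of the others. With it left out, the log2 difference of 16.5 from 14.5 dpc went from 0.39 to -0.08 for C1qc on array A and from -0.35 to 0.28 for C1qc on array C. That of 18.5 from 16.5 dpc went from -0.27 to 0.06 for C1qa. None of these values passed.

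Probe sets of the same gene followed each other in part at most over the 10 samples. The Pearson r of the log2 signals was 0.42 between both C1qb probe sets, but the Spearman rho was only 0.03. Between those of Csf1r r was 0.54 (rho 0.44), and between those of Laptm5 0.44 (rho 0.47). For C1qc r was -0.66, as given above. Between genes, the highest r was 0.71, of C1qb probe set 162276_i_at and Csf1r probe set 104354_at. Next came C1qc on array A and the same Csf1r probe set, with 0.67. With that Csf1r probe set, C1qb probe set 96020_at had an r of 0.25 and C1qa 0.16. C1qc on array C had an r of -0.68 with it, the lowest of all pairs. The points of array A share an array and its scaling, and these values are descriptions over 10 samples.

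**Figure D3:**
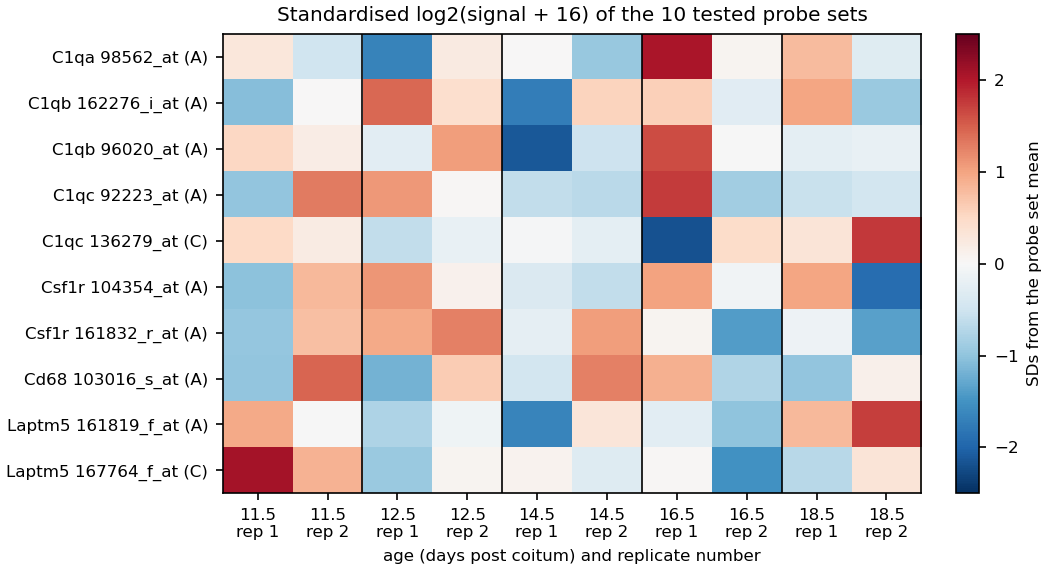
Log2(signal + 16) of the 10 tested probe sets (rows) in the 10 numbered samples (columns, ordered by age), in SDs from each probe set's mean over the samples. The first sample of 16.5 dpc is the darkest red for C1qa and C1qc on array A and deep blue for C1qc on array C, and no column has 1 colour throughout.

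The patterns most like the mean profile of the 6 tested genes, each taken at its brightest tested probe set, were those of Stx18 (Pearson r 0.91 over the 10 samples), Akr1c19 (0.89), Cped1 (0.87), Ppp1r13l (0.87) and Parvg (0.85), among 12583 genes searched. For the C1q chains alone they were Atp6v1e1 (0.93), Ctnnb1 (0.91), Adamtsl5 (0.89), Exog (0.88) and Stimate (0.87). With C1qc taken from array A in place of array C, a choice made after seeing the data, the 5 were Coq5 (0.88), Gtf3c3 (0.88), Pdgfra (0.87), F13a1 (0.84) and Slc9a8 (0.84), so none of the first 5 recurred. The likeness to the C1q chains thus depended on which C1qc probe set was used.

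Other genes of macrophages, leukocytes and their pathways were taken from lists, with 1 probe set per gene, the tested one of highest mean log2 signal. Over all 12589 named genes tested, 17.5% passed for 18.5 against 11.5 dpc, 1151 higher and 1054 lower, with a median log2 change of 0.02. A probe set that was bright only at 1 age could enter the tests through that age alone, so the counts below describe the genes measured and not whole lists. Among the genes called higher, those at 50 or more only at 18.5 dpc were 1 of 4 other macrophage genes, 1 of 7 complement genes, 1 of 8 granulocyte and mast cell genes and 2 of 8 germ cell genes. Genes at 50 or more only at 16.5 and 18.5 dpc, such as Sirpa, Cma1 and Hdc below, are not in these counts.

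Of 54 other macrophage genes on the arrays 27 were tested, and 4 were higher and 2 lower at 18.5 than at 11.5 dpc, with a median log2 change of 0.24. Fcgr2b, an inhibitory receptor for antibodies on myeloid and B cells, gave 3.4 and 3.2 at 11.5 dpc and 57.6 and 64.6 at 18.5 dpc. It reached 50 only in the samples of 18.5 dpc and so entered the tests through them alone, and its p is not given. Its signals at 11.5 dpc lie among those of the bacterial probe sets, so no size is given for the change. Cyba, the small subunit of the oxidase that makes superoxide, rose in mean signal from 226 ± 25.6 to 459 ± 10.6 (SD, n = 2 each; limma adjusted p 0.0024). Sirpa, a myeloid receptor for the signal CD47, read 9.6 and 19.5 (11.5 dpc) against 48.7 and 83.4 (18.5 dpc). Only samples of 16.5 and 18.5 dpc brought Sirpa to 50, so it entered the tests through late ages and its p is not given. The former signals fall inside the range of the bacterial probe sets on array A, so its change is given no size. The call on Sirpa was lost without 11.5 dpc replicate 1 or 18.5 dpc replicate 2. Mpeg1, a pore-forming protein of macrophages, read 62.0 ± 6.44 at 11.5, 15.1 ± 4.24 at 12.5, 92.5 ± 27.7 at 14.5, 57.0 ± 6.58 at 16.5 and 16.4 ± 9.83 at 18.5 dpc (SD, n = 2 each), with no single direction over the course. Its fall from 11.5 to 18.5 dpc (limma adjusted p 0.012) was lost without 11.5 dpc replicate 2 (0.053) or 18.5 dpc replicate 2 (0.11).

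The defining surface markers of macrophages were dim. Adgre1, which encodes F4/80, read 4.2 to 28.5, Itgam, which encodes CD11b, 2.6 to 8.5, Fcgr3 10.9 to 43.2 and Fcer1g 2.8 to 27.1, and none was tested. Tyrobp, the adaptor of many myeloid receptors, read 31.3 to 63.4 and had a log2 difference of 0.49 (SE 0.24, limma adjusted p 0.20). Ctss, the lysosomal protease cathepsin S, read 39.2 to 82.9, with a difference of 0.34 (SE 0.25, limma adjusted p 0.41). Of the 54 genes, 23 had no array at 50 or more on the probe set taken.

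The list of genes shared by leukocytes had 19 of 33 tested, with 3 higher, none lower and a median of 0.17. Cd44, an adhesion receptor for hyaluronan that many cell types carry, rose from 44.3 and 68.3 at 11.5 dpc to 344.7 and 354.3 at 18.5 dpc, by 2.36 log2 units (SE 0.23, limma adjusted p 3.8e-05). Its signals at 11.5 dpc lie within the range of the bacterial probe sets on array B, so the size is uncertain. Runx1, a transcription factor of blood formation that is also made outside the blood, rose by 0.94 (SE 0.25, limma adjusted p 0.025). Runx1 did not pass when 11.5 dpc replicate 1 (0.14) or either sample of 18.5 dpc (0.063 and 0.17) was left out, or in limma with no intensity trend (0.062). Plcg2, a phospholipase of immune receptor signalling, was higher by 1.11 (SE 0.28, limma adjusted p 0.021), which was lost without 11.5 dpc replicate 2 (0.090), 18.5 dpc replicate 1 (0.17) or 18.5 dpc replicate 2 (0.093). Its means of 66.3 ± 9.62 at 12.5 dpc and 9.45 ± 3.32 at 16.5 dpc (SD, n = 2 each) show no steady course. The Plcg2 signals at 11.5 dpc, 20.6 and 13.0, lie among those of the bacterial probe sets on array A, so the size of its change is uncertain.

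Other complement genes had 15 of 32 tested, with 7 higher, 1 lower and a median log2 change of 0.95. Clu, a secreted chaperone that blocks the membrane attack complex, rose from 73.3 ± 34.1 at 11.5 dpc to 492 ± 101 at 16.5 dpc and 321 ± 0.424 at 18.5 dpc (SD, n = 2 each; limma adjusted p 0.00084). Cd55, a membrane inhibitor of complement, stood at 13.8 to 75.3 in the 8 samples to 16.5 dpc and at 344.4 and 389.2 at 18.5 dpc (limma adjusted p 0.0012). All but the highest of its signals in those 8 samples lie within the range of the bacterial probe sets on array B. Mbl2, a soluble recognition protein of the lectin pathway, was 2.7 to 14.8 in those 8 samples and 109.1 and 116.3 at 18.5 dpc. It entered the tests through the latter alone, and its p is not given. C8g, a chain of the attack complex, rose from 38.8 ± 6.86 to 124 ± 11.0 (SD, n = 2 each; limma adjusted p 0.0016). The 1 gene that fell was Cd93, a surface glycoprotein of endothelial and myeloid cells, named after its values were seen (log2 change -2.94, limma adjusted p 0.021). No gene of the list was called lower when any 1 sample of 11.5 or 18.5 dpc was left out, or in limma with no intensity trend, so its call was lost in those 5 settings.

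The list of the Csf1 receptor pathway had 14 of 19 genes tested, with none higher, 2 lower and a median of 0.25. Without 11.5 dpc replicate 2 the balance of calls turned, and the median was 0.40. The list also holds ligands and receptors of related growth factors, of which Csf3, Csf2ra, Csf3r and Flt3 were tested. Their log2 changes were 0.34, 0.57, 0.95 and 0.39, and none passed. Over the 14 genes 9 changes were above 0 and 5 below, so the median is not that of Csf1 receptor genes alone. Dab2, an endocytic adaptor, fell from 163 ± 24.0 to 73.8 ± 14.8 (SD, n = 2 each; limma adjusted p 0.0048), and the call was lost without 18.5 dpc replicate 2 (0.058). Cbl, a ubiquitin ligase that ends receptor signalling, fell from 388.3 and 544.4 to 162.8 and 265.1 (limma adjusted p 0.014), lost without 11.5 dpc replicate 2 (0.089) or 18.5 dpc replicate 1 (0.16). The ligands did not pass. Csf1 read 38.7 to 87.8, with a difference of -0.22 (SE 0.25, limma adjusted p 0.62), and Il34 27.2 to 71.9, with a difference of 0.20 (SE 0.44, limma adjusted p 0.81). All signals of Il34 lie within the 1.6 to 72.4 of the bacterial probe sets on array B, which limits what they can show.

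Genes for the clearance of dying cells had 19 of 26 tested, with 5 higher, 4 lower and a median of -0.10. Gas6, the bridge between dying cells and the TAM receptors, rose from 126 ± 37.1 to 426 ± 3.04, and Abca1, a cholesterol exporter, from 111 ± 5.87 to 307 ± 17.2 (SD, n = 2 each; limma adjusted p 0.00027 and 0.00025). Anxa1, a protein that binds phosphatidylserine, rose by 1.84 (SE 0.28, limma adjusted p 0.0012). Gulp1, an engulfment adaptor, fell from 417 ± 65.5 to 45.0 ± 7.78 (SD, n = 2 each; limma adjusted p 0.00061). Its signals at 18.5 dpc lie among those of the bacterial probe sets on array C. Lysosomal genes had 33 of 37 tested, with 6 higher, 1 lower and a median of 0.22. Lamp1, the main lysosomal membrane protein of most cells, rose from 800 ± 135 to 1757 ± 151 and Ctsd, the protease cathepsin D, from 345 ± 46.2 to 760 ± 28.8 (SD, n = 2 each; limma adjusted p 0.00083 and 0.00084). For antigen presentation by class II, 6 of 14 were tested and 1 was higher, with a median of -0.09. That gene was Cd74, the invariant chain (41.6 ± 15.2 to 80.2 ± 4.17, SD, n = 2 each; limma adjusted p 0.043), whose call was lost under 13 of 17 alternatives, with adjusted p up to 0.20.

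**Figure D4:**
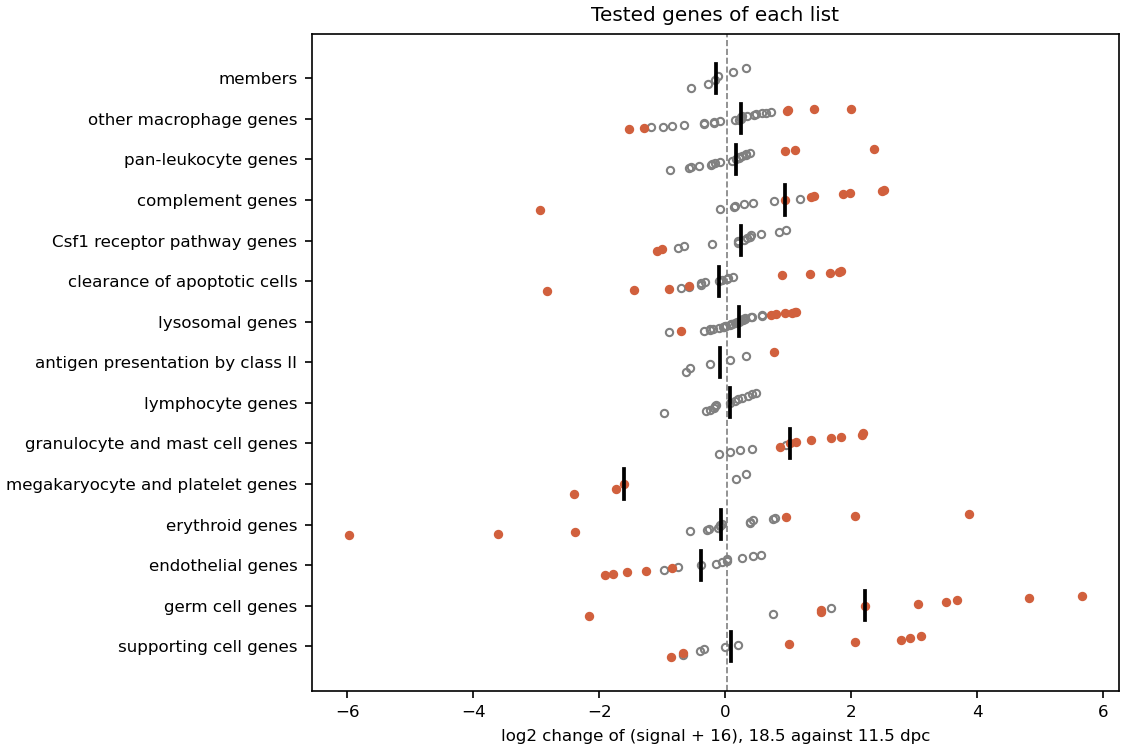
Log2 change of signal + 16 from 11.5 to 18.5 dpc for the tested genes of each list, 1 point per gene at its brightest tested probe set, filled where limma's adjusted p is under 0.05; black bars are list medians, the dashed line is the median of all 12589 named genes (0.02), and "members" are the 8 genes described here. The members lie between -0.55 and 0.33 with no filled point. List medians run from -1.61 for megakaryocyte and platelet genes to 2.22 for germ cell genes. They are 0.24 for other macrophage genes, 0.17 for leukocyte genes, 0.95 for complement genes and 1.02 for granulocyte and mast cell genes.

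Markers of other blood cells and of the ovary's own cells were listed beside them. Granulocyte and mast cell genes had 13 of 28 tested, with 8 higher, none lower and a median of 1.02. The summed signal of that list was 951 and 1018 at 11.5 dpc and 1984 and 2038 at 18.5 dpc. Cma1, a protease of mast cell granules, read 13.8 ± 5.59 at 11.5 dpc and 117 ± 3.18 at 18.5 dpc (SD, n = 2 each). The former lies among the signals of the bacterial probe sets. Cma1 reached 50 only in samples of 16.5 and 18.5 dpc and so entered the tests through them, and its p is not given. S100a8, a calcium-binding protein of neutrophils, rose from 69.0 ± 32.5 to 247 ± 18.1 (SD, n = 2 each; limma adjusted p 0.0032). Camp, an antimicrobial peptide of neutrophils, was higher by 1.84 (SE 0.32, limma adjusted p 0.0024). Hdc, which makes histamine, read 33.8 and 36.5 at 11.5 dpc and 76.3 and 101.0 at 18.5 dpc. Like Cma1, it reached 50 only in samples of 16.5 and 18.5 dpc, so its p is not given. The call on Hdc was lost without any 1 of the 4 samples of 11.5 and 18.5 dpc. Mpo, a neutrophil enzyme, read 16.3 to 31.8 and the mast cell protease Mcpt4 1.7 to 5.6, and neither was tested. Lymphocyte genes had 13 of 32 tested, with none higher or lower and a median of 0.07. The median went to -0.31 without 11.5 dpc replicate 1, with 1 gene lower, and to 0.28 without 11.5 dpc replicate 2, and quantile normalization gave -0.08 with 1 lower. Cd3e, of T cells, read 6.8 to 11.6 and Cd79a, of B cells, 18.3 to 87.9 (limma adjusted p 0.81).

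Of 13 megakaryocyte and platelet genes 5 were tested, with none higher, 3 lower and a median of -1.61. Ppbp, a platelet chemokine, fell from 131 ± 12.5 to 33.6 ± 18.2 (SD, n = 2 each; limma adjusted p 0.012), a call lost without 11.5 dpc replicate 2 or 18.5 dpc replicate 1. Its signals at 18.5 dpc lie among those of the bacterial probe sets on array B. Clec1b, a platelet receptor, read 142.4 and 125.9 at 11.5 dpc and 7.4 and 17.9 at 18.5 dpc. All of these but 142.4 lie within the range of the bacterial probe sets on array C. Clec1b reached 50 only in samples of 11.5 and 12.5 dpc and so entered the tests through them, and its p is not given. The call on Clec1b was lost without 18.5 dpc replicate 1. Erythroid genes had 18 of 19 tested, 3 higher and 3 lower, with a median of -0.07. The embryonic globin Hbb-y fell from 7671 ± 722 to 609 ± 12.6 and the adult globin Hbb-b2 rose from 527 ± 41.2 to 7894 ± 171 (SD, n = 2 each; limma adjusted p 4.5e-08 and 8.7e-08). Endothelial genes had 15 of 19 tested, none higher and 5 lower, with a median of -0.38. Emcn, a sialomucin of venous and capillary endothelium, fell from 218 ± 9.48 to 45.8 ± 6.15 and Cdh5, the vascular cadherin, from 115 ± 10.9 to 22.8 ± 12.4 (SD, n = 2 each; limma adjusted p 0.00028 and 0.0031). Pecam1, carried by endothelium and early germ cells, did not pass (log2 difference 0.27, SE 0.21, limma adjusted p 0.43).

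Markers of the labelled tissue were measured and changed with age. Germ cell genes had 11 of 12 tested, with 8 higher, 1 lower and a median of 2.22, and Ddx4, an RNA helicase of germ cells, rose from 63.6 ± 31.0 to 341 ± 20.0 (SD, n = 2 each; limma adjusted p 8.8e-05). Sycp1, of the synaptonemal complex of meiosis, rose from 3.1 and 1.3 at 11.5 dpc, among the signals of the bacterial probe sets, to 903 ± 30.4 (SD, n = 2) at 18.5 dpc (limma adjusted p 4.5e-08). Supporting cell genes had 12 of 12 tested, 5 higher and 2 lower, with a median of 0.09, and Foxl2, a transcription factor of granulosa cells, rose from 92.0 ± 3.54 to 730 ± 89.0 (SD, n = 2 each; limma adjusted p 8.5e-05). The part of these changes in cell makeup in the values of the 8 genes was not tested.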

How the data were processed

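Total RNA from pools of mouse embryonic ovaries was hybridised to 30 Affymetrix arrays, 3 types for each of 10 numbered samples, which were grouped by the age in their titles. The deposited values are signal intensities that, per the labels, the authors scaled so that each array averaged 125. The sources used here do not give the software. No counts exist, and the number of arrays limits the precision. Gene symbols came from the platform annotation.

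From the intensities, log2(signal + 16) was fitted with limma 3.58.1 (R 4.3.3), 1 fit per array type with the 5 ages as groups and 5 residual degrees of freedom, eBayes with an intensity trend and two-sided p-values. Probe sets with a signal of at least 50 on at least 2 of 10 arrays were tested, and p-values were adjusted (Benjamini-Hochberg) over the 3 types together, with a threshold of 0.05. A log2 change therefore understates the change of low signals. The procedure was checked on simulated arrays with known changes. Each sequence window came from RefSeq's promoter table (GRCm38.p6).

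The 8 genes and the gene lists were chosen with earlier results of these data known. Named list genes were drawn from up to 4 per list with the smallest p among those that passed, and fixed defining markers; those that passed only in the slope or F test are not described. Alternatives were pseudocounts of 1 and 64, no filter and a filter at 100, quantile and median scaling, no intensity trend, the replicate number as a block, and each numbered sample left out. Correlations of deviations between samples of 1 number lay between -0.16 and 0.22, so the numbers were not taken to pair samples.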

Additional observations from a re-analysis of the deposited data

How the results depend on the processing

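With each alternative, 0 of the tested probe sets of the 8 genes passed in the 7 tests, except that without a filter on low signals 1 passed in the slope, Lyz2 probe set 100611_at (adjusted p 0.021). Leaving out each numbered sample in turn gave 0 called in every test. With the replicate block, which rests on a shared number alone, 0 passed and the smallest adjusted p was 0.19. Over the settings other than no filter the smallest adjusted p ran from 0.063, for Csf1r without 11.5 dpc replicate 1, to 0.20. Of 1020 estimates under an alternative, 61 had the other sign while not passing in either setting. Calls over all probe sets for 18.5 against 11.5 dpc ran from 1511 without 18.5 dpc replicate 1 to 3685, and for 12.5 against 11.5 dpc from 2 without 12.5 dpc replicate 2 to 558 without 11.5 dpc replicate 2. The gene lists were run under the same settings after the data were seen. Higher calls ran from 5 to 8 for complement genes, 4 to 8 for granulocyte and mast cell genes and 1 to 4 for other macrophage genes, whose median ran from -0.07 to 0.45. The medians of the leukocyte list, -0.04 to 0.23, the lymphocyte list, -0.31 to 0.28, and the 6 tested genes described here, -0.33 to 0.06, likewise changed sign. Signals of Ptprc, Adgre1 and Itgam lie within or below the range of the bacterial probe sets on array A, and those of Il34 within the range on array B. This limits what they can show.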
